A study of Mus musculus with 9 samples.

Results

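The genes described here are 36 genes of glucose use in the mouse heart, taken as a fixed list of symbols and arranged by the step at which their products act. There were 2 transporters of glucose, 18 genes of glycolysis, 4 genes of glycogen, and 12 genes that handle pyruvate and lactate. All 36 were found among the 15779 genes of the deposited tables, and all 36 had enough signal to be tested. Messenger RNA was sequenced from pieces of adult C57BL/6J mouse heart in 9 libraries, 3 in each of 3 groups. The first group was wild type given saline. The second, called saline mutants below, was homozygous for the Mybpc3 R946X allele and given saline. The third, called treated mutants, carried the same homozygous allele and received a treatment labelled high-dose-exABE8e.

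Mybpc3 is the gene of the heart's myosin-binding protein C, part of the thick filament, and R946X is a premature stop codon. The series' design text describes adenine base editors, enzymes that turn adenine into a base read as guanine without cutting both DNA strands, carried by the virus AAV9 for expression in cardiomyocytes. The labels do not spell out the name exABE8e, and they give no dose in numbers, no age and no sex. They also do not say whether the 3 libraries of a group came from separate animals, so each p-value measures the spread between these libraries, which may be technical. A treated wild-type group is not analysed here, and whole tissue was used, so fewer cells of a type and less RNA per cell cannot be told apart.

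The adult heart burns mainly fatty acids and uses glucose, lactate and stored glycogen as further fuels. Glucose enters a cardiomyocyte through the transporters GLUT4, which insulin and contraction bring to the cell surface, and GLUT1. Hexokinase traps it as glucose 6-phosphate, which is either stored as glycogen or broken down by glycolysis to pyruvate. Pyruvate is exchanged with lactate by lactate dehydrogenase or carried into the mitochondrion, where the pyruvate dehydrogenase complex commits it to oxidation under the control of inhibitory kinases. Several of these steps are served by a striated-muscle form and a more widely expressed form of the same enzyme, encoded by separate genes.

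The deposited value of a gene in a library is a whole number, and the values of a library summed to between 999152 and 999382, as for a per-million scale. Between 14151 and 14934 genes were above 0, and mitochondrial transcripts took 17.0% to 24.1% of the total. Mybpc3 itself was at 1510, 1795 and 2039 in wild type, at 133, 142 and 186 in saline mutants and at 1024, 1374 and 1332 in treated mutants, which matched the labels. Xist, the RNA of the inactive X chromosome, was at 119 in wild type replicate 1, 351 in saline mutant replicate 3 and 39 in treated mutant replicate 1, and at 0 in the other 6 libraries. Treated mutant replicate 1 also held the Y-linked transcript Ddx3y, at 38. Of 9 cardiomyocyte markers 0 were called by limma in any comparison. In saline mutants against wild type, 5 of the 9 did not overlap, beside 21.6% of all genes. By limma 5 of the 9 had an unadjusted p under 0.05, beside 19.9% of all genes. These included Tnni3 (-0.50 on the log2 scale), Pln (-0.41) and Actc1 (0.32). In both treated comparisons 0 had such a p, beside 8.29% of all genes against saline mutants and 12.5% against wild type. The summed level of the 9 ran from 50081 to 56490 in wild type, 49662 to 60063 in the saline mutants and 53579 to 55084 in treated mutants. Of 7 fibroblast markers, 2 were called higher in saline mutants against wild type. Their summed level ran from 1666 to 2403 in wild type, 2673 to 4288 in the saline mutants and 1967 to 2708 in treated mutants. Other markers called in that comparison were Acta2 of smooth muscle (-1.09, limma adjusted p 0.00716), Alas2 of erythroid cells (-1.35, 0.0359) and Myl4 of atrial muscle (1.19, 0.0122), the last at 5 or less in every library. The share of the 36 glucose genes in a library lay between 1.30% and 1.71%.

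Summed over all 36 genes, the level was 16628 ± 511 (SD, n = 3) in wild type, 13960 ± 867 in the saline mutants and 15908 ± 550 in treated mutants. This put the saline mutant mean at 84.0% of the wild-type mean, and the treated mean at 95.7%. By step, the summed level of saline mutants was 57.7% of wild type for transport, 85.0% for glycolysis, 81.1% for glycogen, and 85.1% for pyruvate and lactate. In treated mutants the same sums were at 90.3%, 95.4%, 99.6% and 94.8% of wild type. These sums are weighted toward the abundant genes, and the genes within each step did not all move one way.

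Gene by gene, values were compared as log2(value + 1) with limma, and a gene was called where its adjusted p-value over all genes tested was under 0.05. In saline mutants against wild type, 8 of the 36 genes were called (22.2%), where the share over all 13632 genes tested was 7.71%. The genes Pfkp, Pgam1 and Gbe1 rose, against 4.56% of all genes called higher, while Slc2a4, Pfkfb1, Eno3, Ldha and Pdk2 fell, against 3.15% of all genes called lower. The 3 saline mutant values lay wholly outside the range of the 3 wild-type values in 21 of the 36 genes (58.3%), 16 of them lower and 5 higher. Over all genes this held for 21.6%, with 8.78% lower and 12.8% higher. Before adjustment, 16 of the 36 had a p under 0.05, beside 19.9% of all genes. The median log2 difference of the 36 genes was -0.14, and that of all genes tested was 0.07. The genes tested include those of low value, where ties of whole numbers favour overlap, and shares at a matched level were not computed. With only genes of a mean value of at least 10, 9.38% of all genes were called, and 7 of the glucose genes. Other scalings of the libraries changed the balance over all genes, from 622 higher and 429 lower to 626 higher and 685 lower with upper-quartile factors. The median of the 36 genes was -0.23 on that scaling, and the 8 called there were the same apart from Pgam1, which was lost, and Mpc2, which was gained. With single libraries left out, 3 to 6 of the 36 genes were called, and Slc2a4, Pfkfb1 and Eno3 were among them each time. The fewest, 3, were called without wild type replicate 3 or without saline mutant replicate 2. Without the libraries with Xist in this comparison, wild type replicate 1 and saline mutant replicate 3, 4 were called, which were Slc2a4, Pfkfb1, Eno3 and Ldha. The summed fibroblast level was also higher in each saline mutant than in any wild-type library, and its part in the 3 rises was not tested.

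**Figure D1:**
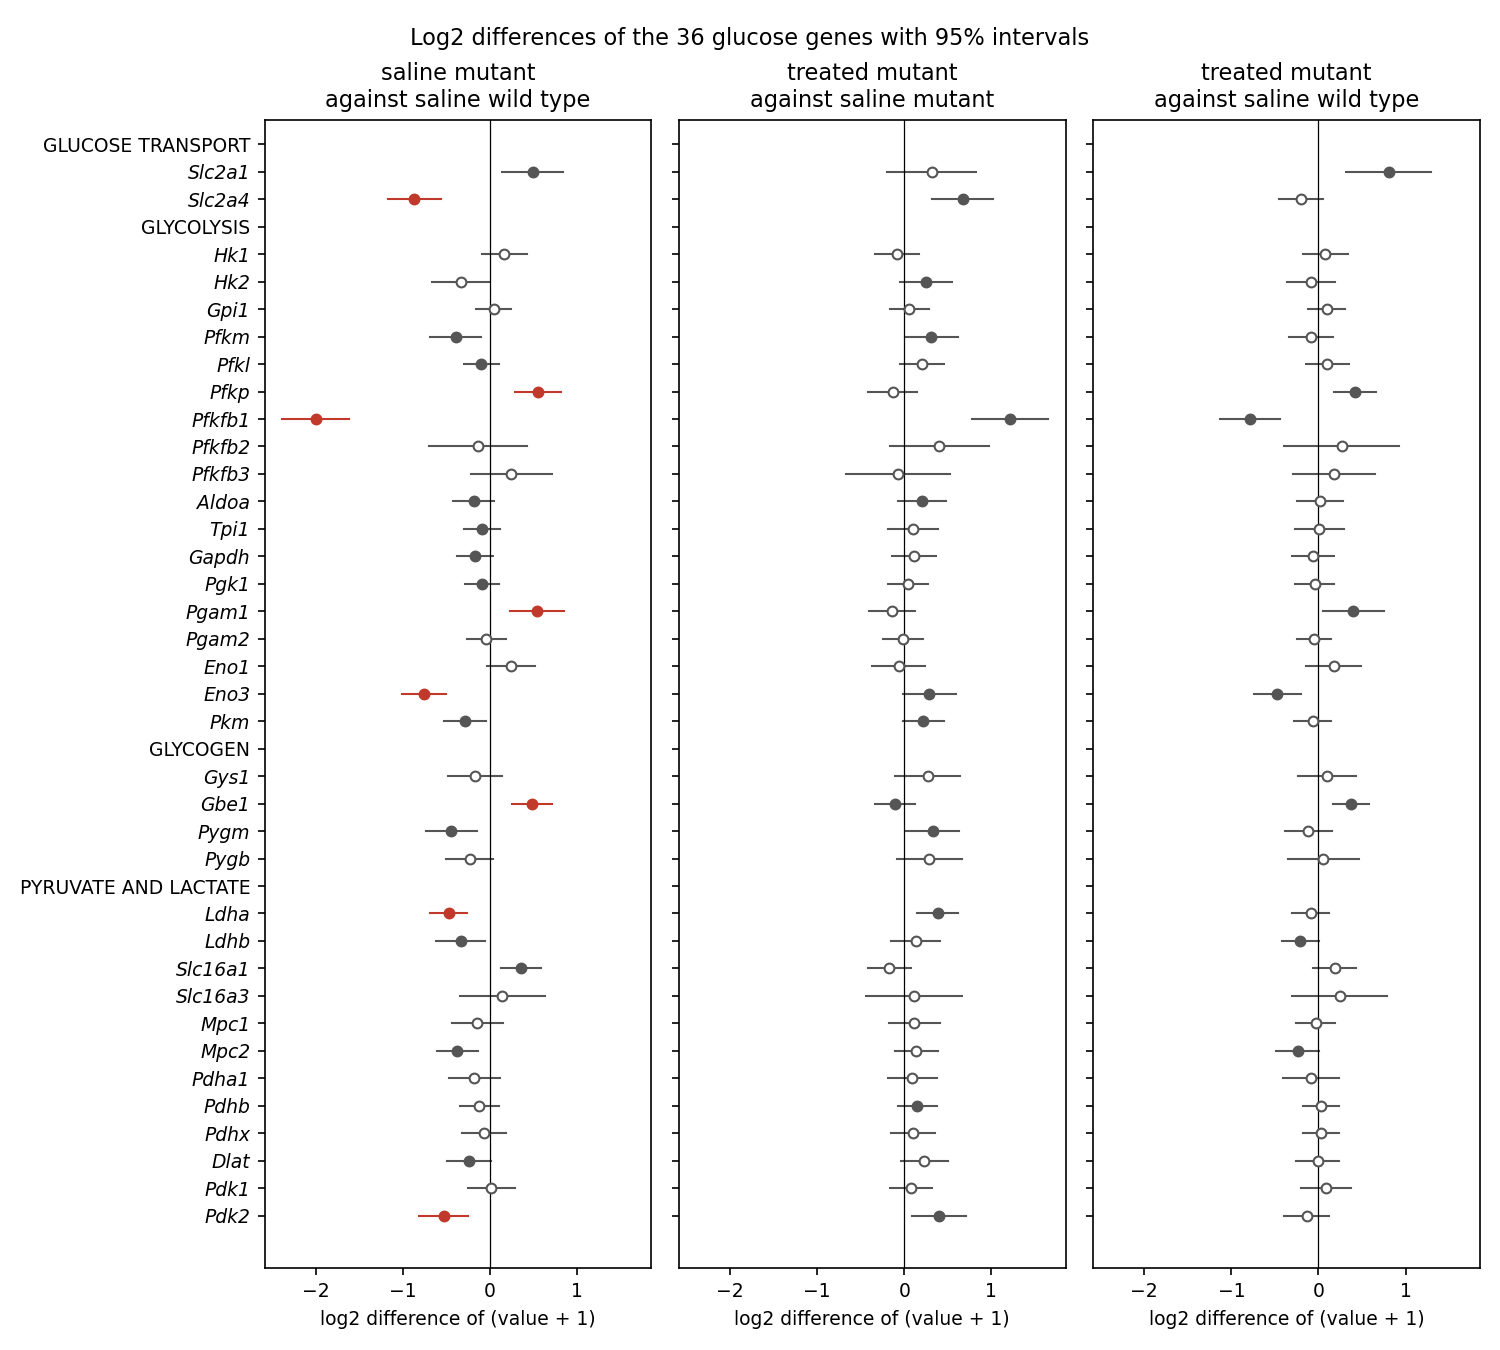
Log2 differences (x axis, of value + 1) of the 36 genes (rows, by step) in the 3 comparisons, with 95% intervals. Red marks genes past the adjusted threshold, which are 8 in saline mutants against wild type and 0 in the other comparisons, and filled points mark genes whose 3 libraries of one group do not overlap the 3 of the other.

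Of the 2 glucose transporter genes, Slc2a4 fell in saline mutants and Slc2a1 was not called. Slc2a4 encodes GLUT4, the insulin-responsive transporter, on chromosome 11 from 69942539 to 69948188 (minus strand, GRCm38). Its values were 312, 309 and 311 in wild type, 195, 183 and 137 in the saline mutants and 258, 311 and 247 in treated mutants. All 3 saline mutants lay far below the nearly identical wild-type libraries, and treated mutants lay above every saline mutant and reached wild type in 1 library. The log2 difference of saline mutants from wild type was -0.87 (SE 0.135, limma adjusted p 0.00591), and it stayed called with any single library left out. Treated mutants differed from saline mutants by 0.67 (SE 0.155), with a limma adjusted p of 0.273.

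Slc2a1, which encodes the broadly expressed transporter GLUT1 on chromosome 4 from 119108711 to 119137983 (plus strand), was far lower in level. It was at 8, 9 and 9 in wild type, 12, 11 and 15 in the saline mutants and 19, 19 and 11 in treated mutants. Both mutant groups lay above wild type, and they overlapped each other. The log2 difference from wild type was 0.49 in saline mutants (SE 0.155, limma adjusted p 0.106) and 0.81 in treated mutants (SE 0.21, limma adjusted p 0.166), and neither was called. Without treated mutant replicate 3, the lowest of its group, the difference of treated mutants from wild type was called (limma adjusted p 0.0289).

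Most of the 18 glycolysis genes lay slightly lower in saline mutants, with 12 below wild type and 6 above on the log2 scale. Of these 18, Pfkfb1 and Eno3 fell, Pfkp and Pgam1 rose, and 14 were not called. The log2 differences of those 14 ran from -0.40 to 0.24, with limma adjusted p-values from 0.111 to 0.876.

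Pfkfb1 encodes a bifunctional enzyme that makes and removes fructose 2,6-bisphosphate, the strongest activator of phosphofructokinase, and lies on chromosome X from 150588229 to 150643878 (plus strand). It was at 7 in each wild-type library, at 1 in each saline mutant, and at 3, 4 and 4 in treated mutants. The 3 groups did not overlap, and the treated mutants lay between the others. The log2 difference of saline mutants from wild type was -2.0 (SE 0.169, limma adjusted p 0.000325), the largest in size among the 36 genes, and it stayed called in every alternative in which the gene was tested. These values are small and rounded, so their SD of 0 within a saline group reflects rounding as well as likeness. Every alternative used the same rounded values. In the authors' deposited full table its log2 fold change was -2.88 (SE 1.06). There its unadjusted p of 0.00663 became 0.213 after Benjamini-Hochberg adjustment, which did not pass. Treated mutants were higher than saline mutants by 1.21 (SE 0.19, limma adjusted p 0.139) and differed from wild type by -0.79 (SE 0.145, limma adjusted p 0.0654). The related genes Pfkfb2 and Pfkfb3 overlapped between all groups, at 20 to 37 and 15 to 16 in wild type, 22 to 35 and 14 to 26 in saline mutants, and 26 to 49 and 14 to 25 in treated mutants.

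Eno3, the muscle enolase of the next-to-last step of glycolysis, lies on chromosome 11 from 70657202 to 70662513 (plus strand). Its values were 1306, 1372 and 1428 in wild type, 875, 847 and 713 in the saline mutants and 907, 927 and 1139 in treated mutants. The 3 groups did not overlap, and the treated libraries lay between the others, 2 of the 3 close to the saline mutants. Against wild type, the saline mutants had a log2 difference of -0.76 (SE 0.113, limma adjusted p 0.00466), and it stayed called in every alternative. Treated mutants differed by 0.29 from saline mutants (SE 0.133, limma adjusted p 0.622) and by -0.47 from wild type (SE 0.115, limma adjusted p 0.148). Eno1, the widely expressed enolase, ran from 110 to 137 in wild type, 130 to 162 in the saline mutants and 124 to 162 in treated mutants, with overlap throughout.

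The phosphofructokinase subunits catalyse the committing step of glycolysis. Pfkp, the platelet-type subunit on chromosome 13 from 6579768 to 6648777 (minus strand), was at 82, 93 and 86 in wild type, 113, 129 and 143 in the saline mutants and 118, 106 and 126 in treated mutants. Wild type lay below both mutant groups, which overlapped each other. The log2 difference of saline mutants from wild type was 0.55 (SE 0.115, limma adjusted p 0.0215). This call was lost without wild type replicate 1 (0.0775) or 3 (0.0795), or without saline mutant replicate 2 (0.0991) or 3 (0.0647). Treated mutants were above wild type by 0.42 (SE 0.105, limma adjusted p 0.155). An antisense gene, Pitrm1, overlaps 5.58% of the exon bases of Pfkp and matched 18% of its longest protein-coding transcript. Reads of the pair cannot be told apart there if strand was not used in counting.

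Pfkm, the muscle subunit and the one with the highest value of the 3, was at 990, 1049 and 1145 in wild type, 899, 842 and 688 in the saline mutants and 926, 1101 and 975 in treated mutants. The saline mutants lay below both other groups, which overlapped each other, but the log2 difference from wild type of -0.40 (SE 0.126) was not called (limma adjusted p 0.111). The liver-type subunit Pfkl was also lower in each saline mutant, at 106 to 111 against 113 to 120 in wild type, by only -0.10 (SE 0.0886, limma adjusted p 0.601).

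Pgam1 encodes the non-muscle phosphoglycerate mutase, on chromosome 19 from 41911923 to 41918660 (plus strand). It was at 57, 57 and 42 in wild type, 72, 77 and 77 in the saline mutants and 78, 65 and 63 in treated mutants. Wild type was below every mutant library of either treatment. On the log2 scale the difference of saline mutants was 0.54 (SE 0.135, limma adjusted p 0.0461), and the call was lost whichever single library was left out (limma adjusted p 0.0547 to 0.168). Over 43.1% of its transcript, Pgam1 matched a pseudogene, Pgam1-ps2, at 97% identity or more, so its level is uncertain. Its muscle partner Pgam2 overlapped between the groups, at 444 to 472 in wild type, 403 to 474 in the saline mutants and 434 to 449 in treated mutants.

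**Figure D2:**
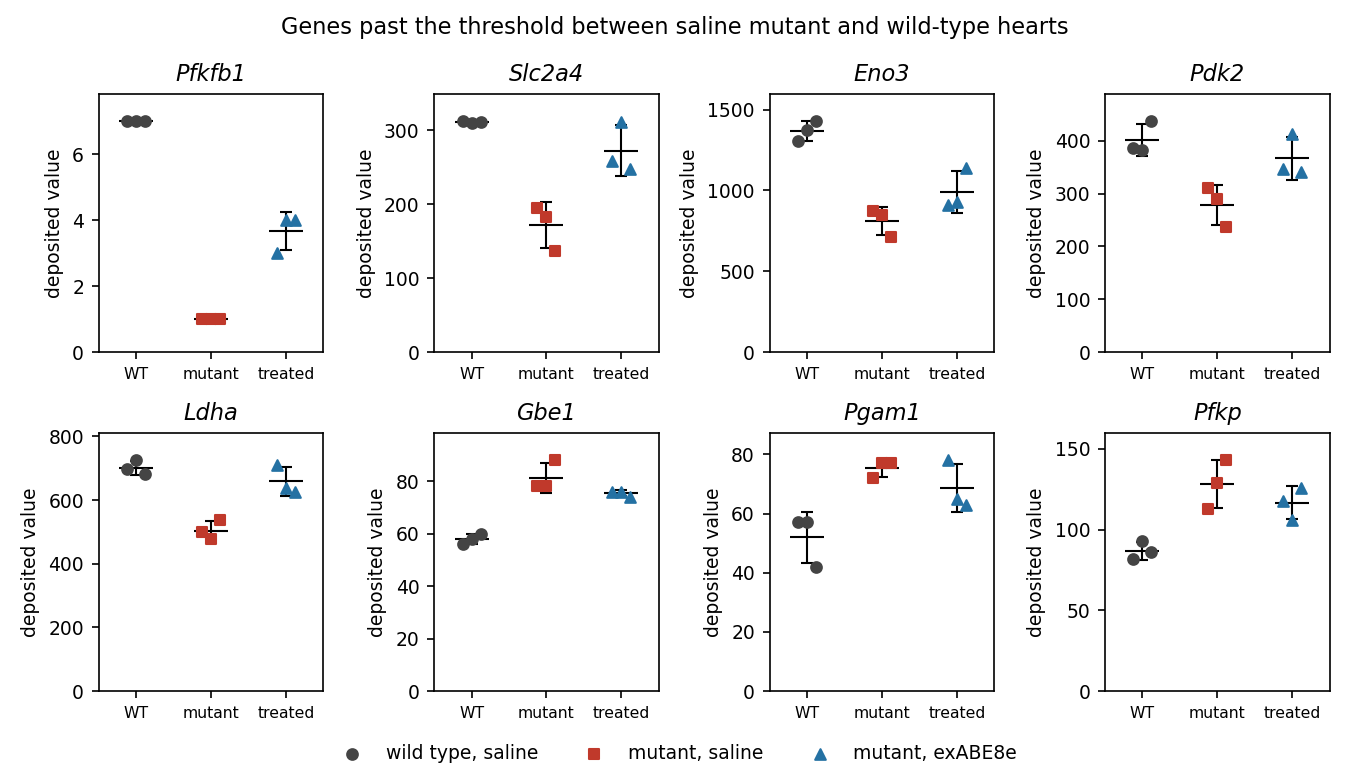
Deposited values (y axis, starting at 0) of the 8 genes called between saline mutants and wild type, 1 point per library, with the mean and SD of each group of 3. Slc2a4, Pfkfb1, Eno3, Ldha and Pdk2 are low in the 3 saline mutants, and Gbe1, Pgam1 and Pfkp are high. In all 8 the mean of the treated mutants lies between the means of the saline groups. The 8 were picked by the difference between the saline groups, a choice that favours such a position.

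Among the remaining glycolysis genes, small shifts without a call were the rule. Aldoa, the muscle aldolase and by its deposited value the most abundant of the 36 genes, was at 1999, 1776 and 1860 in wild type, 1646, 1701 and 1590 in the saline mutants and 2151, 1819 and 1746 in treated mutants. Each saline mutant was below every library of the other groups, by -0.19 against wild type (SE 0.104, limma adjusted p 0.369). Pkm, the pyruvate kinase of the last step, lay below the wild-type range in the same way, at 840, 824 and 741 against 909, 1032 and 993, with a difference of -0.29 (SE 0.104, limma adjusted p 0.16). Gapdh, Tpi1 and Pgk1, which serve the middle of the pathway, were lower in each saline mutant as well, by -0.17, -0.09 and -0.09. Hk1 and Hk2, the hexokinases that trap glucose, and Gpi1 overlapped between saline mutants and wild type. Gapdh, Pgk1, Pkm, Eno1 and Gpi1 share between 48.7% (Gpi1) and 88% (Gapdh) of their transcript with near-identical gene copies, so their levels are uncertain.

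Of the 4 glycogen genes, only Gbe1 was called. Gbe1 is the glycogen branching enzyme, on chromosome 16 from 70313949 to 70569716 (plus strand). It was at 56, 58 and 60 in wild type, 78, 78 and 88 in the saline mutants and 76, 76 and 74 in treated mutants. The treated libraries formed a narrow cluster just under the lowest saline mutant and well above wild type. The saline mutants differed from wild type by a log2 difference of 0.48 (SE 0.0995, limma adjusted p 0.0214). That call was lost without wild type replicate 1 (0.0624), 2 (0.065) or 3 (0.0682), and without saline mutant replicate 2 (0.0815) or 3 (0.0621). Treated mutants differed from wild type by 0.37 (SE 0.0871, limma adjusted p 0.131) and from saline mutants by -0.11 (SE 0.101, limma adjusted p 0.826).

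Pygm, the muscle glycogen phosphorylase that releases glucose units from glycogen, was at 1003, 1081 and 1216 in wild type, 912, 825 and 697 in the saline mutants and 968, 1124 and 949 in treated mutants. The saline mutants lay below both other groups, with a log2 difference from wild type of -0.44 (SE 0.13) that was not called (limma adjusted p 0.0848). The brain phosphorylase Pygb and the muscle glycogen synthase Gys1 overlapped between the saline groups. Pygb was at 844 to 1054 in wild type and 753 to 872 in saline mutants, and Gys1 at 98 to 116 and 78 to 109. In both genes treated mutant replicate 2 had the highest value of its group, 1291 for Pygb and 138 for Gys1.

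The lactate and pyruvate genes included 2 called genes of 12, both lower in saline mutants. Ldha encodes the lactate dehydrogenase subunit that predominates in glycolytic tissue, on chromosome 7 from 46841475 to 46855627 (plus strand). It was at 696, 725 and 681 in wild type, 499, 478 and 536 in the saline mutants and 711, 639 and 626 in treated mutants. The saline mutants stood apart from all 6 other libraries, and treated mutants overlapped wild type. The log2 difference of saline mutants from wild type was -0.47 (SE 0.0944, limma adjusted p 0.0176), and that of treated from saline mutants was 0.38 (SE 0.104, limma adjusted p 0.369). The first was lost without wild type replicate 2 (0.0694) or 3 (0.0611) and without saline mutant replicate 1 (0.0532) or 2 (0.117).

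Ldhb, the heart-type subunit, was lower in saline mutants too, at 1143, 1086 and 886 against 1377, 1247 and 1295 in wild type, and was at 1093, 1116 and 1183 in treated mutants. Both mutant groups lay below wild type, by -0.34 in saline (SE 0.123, limma adjusted p 0.16) and -0.21 in treated mutants (SE 0.0913, limma adjusted p 0.409). A gene copy matches 76.8% of the Ldhb transcript, so its level is uncertain. Slc16a1, which encodes the monocarboxylate transporter MCT1 that moves lactate and pyruvate across the cell membrane, was at 317, 292 and 278 in wild type, 401, 351 and 384 in the saline mutants and 333, 369 and 308 in treated mutants. All 3 saline mutants were above wild type, by 0.36 (SE 0.1, limma adjusted p 0.0736), without a call. Slc16a3, the lactate exporter MCT4, was listed at 2 to 4 in every library.

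For entry into the mitochondrion, Mpc2, a subunit of the mitochondrial pyruvate carrier, was at 317, 286 and 273 in wild type, 226, 241 and 208 in the saline mutants and 265, 226 and 251 in treated mutants. Wild type lay above every mutant library. The difference of saline mutants was -0.37 (SE 0.103, limma adjusted p 0.0686), and it passed the threshold with upper-quartile factors (0.0486). Its partner Mpc1 overlapped between the groups, at 50 to 57 in wild type and 43 to 57 in saline mutants. Among the 4 genes of the pyruvate dehydrogenase complex, Dlat was lower in each saline mutant, at 442, 445 and 371 against 459, 502 and 522, by -0.24 (SE 0.11, limma adjusted p 0.27). Pdha1, Pdhb and Pdhx overlapped between the saline groups. A gene copy matches 71.2% of the Pdhb transcript, so the level of Pdhb is uncertain.

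Pdk2 encodes a kinase that switches the pyruvate dehydrogenase complex off, on chromosome 11 from 95026258 to 95041354 (minus strand). It was at 386, 383 and 437 in wild type, 310, 289 and 237 in the saline mutants and 347, 413 and 340 in treated mutants. The saline mutants lay below every other library, and treated mutants overlapped wild type. The log2 difference of saline mutants from wild type was -0.53 (SE 0.123, limma adjusted p 0.0333), and that of treated from saline mutants was 0.40 (SE 0.133, limma adjusted p 0.495). The call was lost without wild type replicate 1 (0.0819), 2 (0.0615) or 3 (0.13), or without saline mutant replicate 2 (0.103) or 3 (0.0771). Pdk1, a sister kinase, overlapped between all groups, at 181 to 236 in wild type, 198 to 223 in the saline mutants and 205 to 241 in treated mutants.

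Ldha and Pdk2 fell together, and both are listed here with the 250 bases before a RefSeq start, as examples of promoters that do hold the searched motifs, beside Pgam1, which rose. Eno3 and Pfkp, which moved in opposite directions, are shown as examples without them. The motifs searched on both strands were ACGTG, the core of the element bound by hypoxia-inducible factors, and CACGTG, the E-box bound by factors such as MYC and USF. Each CACGTG holds an ACGTG on either strand. Capitals mark every ACGTG or its reverse complement CACGT. The windows are from RefSeq (GRCm38.p6), written 5′ to 3′ on the strand of the gene, at chr7:46845554-46845803 (plus strand) for Ldha, chr11:95041372-95041621 (minus strand) for Pdk2, chr19:41911621-41911870 (plus strand) for Pgam1, chr11:70656926-70657175 (plus strand) for Eno3 and chr13:6648772-6649021 (minus strand) for Pfkp.
Ldha: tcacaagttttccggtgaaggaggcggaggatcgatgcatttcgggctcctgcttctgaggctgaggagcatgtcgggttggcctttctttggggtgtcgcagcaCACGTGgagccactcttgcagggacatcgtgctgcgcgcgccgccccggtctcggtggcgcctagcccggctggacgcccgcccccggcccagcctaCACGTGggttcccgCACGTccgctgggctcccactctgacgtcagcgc
Pdk2: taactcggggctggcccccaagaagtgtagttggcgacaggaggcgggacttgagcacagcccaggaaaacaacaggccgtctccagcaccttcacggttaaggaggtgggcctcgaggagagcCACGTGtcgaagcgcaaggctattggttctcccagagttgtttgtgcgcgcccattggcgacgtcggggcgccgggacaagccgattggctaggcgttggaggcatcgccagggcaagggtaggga
Pgam1: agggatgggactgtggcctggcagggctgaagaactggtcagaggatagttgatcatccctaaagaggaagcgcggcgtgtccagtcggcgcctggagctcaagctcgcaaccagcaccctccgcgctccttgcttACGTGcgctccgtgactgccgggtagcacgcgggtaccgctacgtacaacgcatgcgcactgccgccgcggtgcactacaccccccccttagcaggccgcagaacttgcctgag
Eno3: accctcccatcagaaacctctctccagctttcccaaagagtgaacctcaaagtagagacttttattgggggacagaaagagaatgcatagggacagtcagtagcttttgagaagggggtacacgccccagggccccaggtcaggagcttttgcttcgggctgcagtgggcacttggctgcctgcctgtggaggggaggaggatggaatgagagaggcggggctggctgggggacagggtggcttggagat
Pfkp: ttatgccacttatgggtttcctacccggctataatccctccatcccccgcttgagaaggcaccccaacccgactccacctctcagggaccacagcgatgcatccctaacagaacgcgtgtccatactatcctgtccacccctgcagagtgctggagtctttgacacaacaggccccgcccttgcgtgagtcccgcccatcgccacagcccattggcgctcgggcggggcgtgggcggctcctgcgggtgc

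The Ldha window printed held CACGTG at 2 places and a further ACGTG on the minus strand, the Pdk2 window printed held 1 CACGTG, and the Pgam1 window held 1 ACGTG. RefSeq gives Ldha and Pdk2 a second start each, and the windows before those starts, not printed, held neither motif. Windows were at hand for 35 of the 36 genes, all but Slc2a4, which was therefore not searched. ACGTG was present in at least 1 window of 16 of the 35 (45.7%), beside 18.5% of 27025 genes and 20% of 17491 protein-coding genes with windows of the same length. CACGTG was present in 6 of the 35 (17.1%), beside 6.86% of all genes and 7.61% of protein-coding genes. Where it was not part of an E-box, the hypoxia core was found in 14 of the 35 (40%), beside 12.8% and 13.7%. A gene with more windows has more room for a match, and some of the 35, such as Pfkm and Pfkfb1, had several. The shares by gene were not corrected for this. Over all 32851 windows, 16.6% held ACGTG. Genes with ACGTG were found among those that fell (Ldha, Pdk2), rose (Pgam1) and were not called (such as Hk2, Aldoa and Slc16a1). A match of these letters is a description of the sequence, and no binding was measured.

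Treated mutants were compared with saline mutants to ask whether these genes changed with the treatment. In this comparison limma called 0 of the 36 genes, and it called 0.0293% of the 13636 genes tested. At an unadjusted p under 0.05 there were 6 of the 36, where 8.29% of all genes tested passed. The treated libraries lay wholly outside the saline mutant range in 12 of the 36 genes (33.3%), 11 higher and 1 lower. Over all genes this held for 9.82%, with 5.48% higher and 4.34% lower. The 11 genes higher in each treated library were Slc2a4, Hk2, Pfkm, Pfkfb1, Aldoa, Eno3, Pkm, Pygm, Ldha, Pdhb and Pdk2, and the lower gene was Gbe1. The median log2 difference of the 36 was 0.13, beside -0.02 over all genes.

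Set against wild type, 0 of the 36 genes were called by limma in treated mutants, where 0.989% of the 13554 genes tested were called. At an unadjusted p under 0.05 there were 6 of the 36, beside 12.5% of all genes. The groups did not overlap in 8 of the 36 (22.2%), beside 14.6% of all genes. The 4 higher in treated mutants were Slc2a1, Pfkp, Pgam1 and Gbe1, beside 9.13% of all genes higher, and the 4 lower were Pfkfb1, Eno3, Ldhb and Mpc2, beside 5.43% lower. The 3 comparisons share groups of libraries, so they are not independent of one another.

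Of the 16 genes whose saline mutants lay below every wild-type library, the treated mean lay between the saline means in 13 and above the wild-type mean in 3, which were Pfkl, Aldoa and Tpi1. Of the 5 whose saline mutants lay above every wild-type library, the treated mean lay between in 4, and in Slc2a1 it was above the saline mutant mean. These genes were picked by the separation of the same saline libraries, and that choice by itself favours a treated mean between the saline means. The matching share over all genes was not computed, so these counts are a description only. Whether the treated mean differs from such a midway position was not tested.

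Pairs of genes that encode forms of the same enzyme or transporter were also compared as a ratio within each library, which apart from the added 1 does not depend on how libraries were scaled. In 8 of the 10 pairs the 3 saline mutants lay wholly to one side of the 3 wild-type libraries, each time with a higher ratio of the first gene named to the second. In these pairs, apart from Pdk1 and Pdk2, the first gene encodes the form less typical of adult striated muscle. The log2 ratio was higher by 1.36 for Slc2a1 over Slc2a4, 1.0 for Eno1 over Eno3, 0.95 for Pfkp over Pfkm and 0.58 for Pgam1 over Pgam2. It was higher by 0.55 for Pdk1 over Pdk2, 0.50 for Hk1 over Hk2, 0.29 for Pfkl over Pfkm and 0.21 for Pygb over Pygm. In Ldha over Ldhb (-0.14) and Slc16a3 over Slc16a1 (-0.22) the libraries overlapped. All of the 8 pairs but Hk1 and Hk2 hold a gene whose saline groups did not overlap by itself, so their ratios partly repeat that result. Pfkm is in both the Pfkp and the Pfkl ratio, so the pairs are not independent. Gene copies match 85.6% of the Eno1 transcript and 43.1% of the Pgam1 transcript, so the ratios of these genes are uncertain. With 3 libraries against 3 an exact two-sided permutation test cannot go below p = 0.1, the value reached in each of the 8, and adjusted over all 30 tests the smallest p was 0.188.

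As shares of the family sum, Hk1 was 41.4% ± 1.87 of the 2 hexokinases in wild type and 44.2% ± 0.686 in treated mutants (SD, n = 3), and 48.9%, 49.2% and 51.8% in the 3 saline mutants. The share of Eno1 in the 2 enolases was 8.31% ± 1.17, 15.4% ± 2.85 and 12.5% ± 2.67. Pfkp made up 6.89% ± 0.493 of the 3 phosphofructokinase subunits in wild type, 12.4% ± 2.63 in the saline mutants and 9.44% ± 1.32 in treated mutants. By these values the muscle forms stayed in the majority in the phosphofructokinase and enolase families in every group. Near-identical gene copies match 85.6% of the Eno1 transcript, and none was found for Eno3, so the enolase shares are uncertain. Such shares assume that the deposited values are scaled for transcript length, which their pattern fits but no label states.

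In treated against saline mutants, 2 of the 10 ratios did not overlap, both lower. Hk1 over Hk2 differed by -0.34 and Pdk1 over Pdk2 by -0.32. Against wild type, 6 of the 10 ratios were higher in every treated mutant, for the pairs of Slc2a1, Hk1, Pfkp, Pgam1, Eno1 and Pdk1. Saline mutant replicate 3 had the highest ratio of its group in each of the 8 separated pairs, and it also had the highest summed fibroblast level (4288) and the highest Xist. Fibroblasts and macrophages also express the more widespread forms. The summed level of 7 macrophage markers ran from 386 to 533 in wild type, 413 to 793 in the saline mutants and 402 to 525 in treated mutants. The part of these cells in the ratios was not tested.

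**Figure D3:**
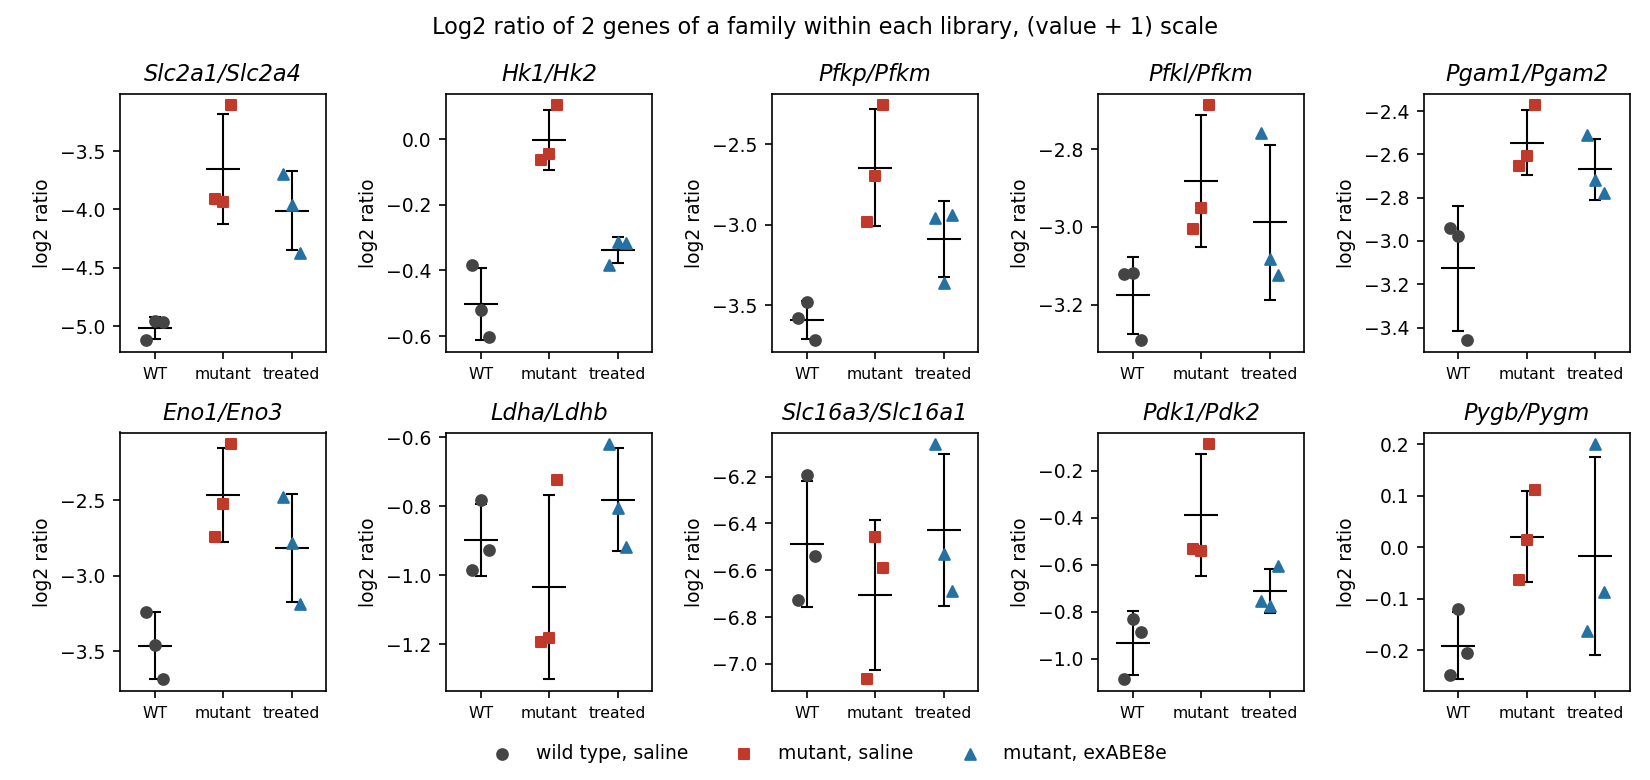
Log2 ratio of (value + 1) of 2 genes of a family within each library (y axis), 1 point per library, with the mean and SD of each group of 3. In 8 of the 10 panels the 3 saline mutants lie above the 3 wild-type libraries, and the Ldha/Ldhb and Slc16a3/Slc16a1 panels overlap.

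Further genes of the same pathways were taken from 8 lists, of which 4 adjoin the steps above. Of 8 tested genes of glucose transport and phosphorylation, 3 fell and 0 rose in saline mutants against wild type. The shares among all genes tested were 3.15% called lower and 4.56% called higher. The median log2 difference of the 8 was 0.21, beside 0.07 for all genes tested, so this list was not lower as a whole. Slc2a12, the transporter GLUT12, was at 7, 12 and 9 in wild type, 4, 3 and 2 in the saline mutants and 4, 9 and 8 in treated mutants, a fall of -1.37 in saline mutants (SE 0.247, limma adjusted p 0.0112), lost with limma's variance step as it stands (0.0513). Slc2a8 and Tbc1d4, which encodes a regulator of GLUT4 traffic, fell by 0.57 and 0.43 on the log2 scale. Their calls were lost with any single library left out, apart from saline mutant replicate 3 for Slc2a8 (limma adjusted p up to 0.103 and 0.191).

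Of 7 other glycolysis genes, with a median log2 difference of 0.15, 1 fell and 0 rose. Fbp2, the muscle fructose bisphosphatase, was at 43, 30 and 37 in wild type, 17, 11 and 9 in the saline mutants and 20, 21 and 22 in treated mutants. The 3 groups did not overlap, and the difference of saline mutants from wild type was -1.53 (SE 0.225, limma adjusted p 0.00428), called in every alternative.

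Of 23 other glycogen genes, with a median log2 difference of -0.01, 2 rose and 1 fell. Phkg1, the muscle catalytic subunit of the kinase that activates glycogen phosphorylase, was at 15, 21 and 15 in wild type, 5, 4 and 3 in the saline mutants and 9, 15 and 10 in treated mutants. The saline mutants lay below all other libraries, by -1.85 against wild type (SE 0.203, limma adjusted p 0.00108). Ugp2, which makes the UDP-glucose used to build glycogen, was at 324, 373 and 351 in wild type, 499, 545 and 589 in the saline mutants and 465, 525 and 461 in treated mutants. Both mutant groups lay above wild type, with a difference of 0.64 in saline mutants (SE 0.105, limma adjusted p 0.00763). The calls of Phkg1 and Ugp2 held in every alternative. Ppp1r3a, which targets a phosphatase to glycogen in striated muscle, rose by 0.59 (limma adjusted p 0.0308), and its call was lost with any single library left out but wild type replicate 3 (limma adjusted p up to 0.114).

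Of 20 other pyruvate and lactate genes, with a median log2 difference of -0.13, 1 rose and 4 fell. Pdk4, the kinase of pyruvate dehydrogenase that fasting and fatty acids induce, was at 1174, 1116 and 1448 in wild type, 3043, 2337 and 1913 in the saline mutants and 1307, 1675 and 1987 in treated mutants. Its difference was 0.95 in saline mutants (SE 0.181, limma adjusted p 0.0146), lost without wild type replicate 1 (0.0743) or saline mutant replicate 2 (0.0593), and treated mutants overlapped both other groups. Pdp2, a phosphatase that reactivates pyruvate dehydrogenase, was at 35, 38 and 38 in wild type, 18, 19 and 14 in the saline mutants and 17, 24 and 25 in treated mutants. The log2 value of saline mutants fell by 1.09 (SE 0.138, limma adjusted p 0.00201), in every alternative. The alanine aminotransferases Gpt and Gpt2, which interconvert pyruvate and alanine, fell by 1.17 (limma adjusted p 0.0137) and 0.67 (limma adjusted p 0.0433), and the mitochondrial malic enzyme Me3 fell by 0.44 (limma adjusted p 0.0377). Gpt lost its call without wild type replicate 1 (0.0677), Gpt2 with any library left out but that one (up to 0.137), and Me3 with any library left out (up to 0.114).

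Over all 8 lists, the comparison of saline mutants with wild type called 21 of 125 tested genes (16.8%), 5 higher and 16 lower, beside 7.71% of all genes. In treated against saline mutants limma called 0 of 126, beside 0.0293% of all genes. In treated mutants against wild type it called 0 of 125, beside 0.989%. At an unadjusted p under 0.05 there were 54 of 125 in saline mutants against wild type, beside 19.9% of all genes. In treated against saline mutants 22 of 126 passed it, beside 8.29%, and in treated mutants against wild type 25 of 125, beside 12.5%. These lists and the 36 genes were put together with results of these libraries known.

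The authors' deposited tables of selected genes held 4 of the 36 genes for saline mutants against wild type, namely Slc2a4, Pfkfb1, Eno3 and Pdk2. In the authors' deposited table for treated against saline mutants, Slc2a4 alone was selected, with a log2 fold change of 0.69 (SE 0.212), and its unadjusted p of 0.00113 became 0.535 after Benjamini-Hochberg adjustment over that table. The authors' deposited table for treated mutants against wild type selected none of the 36. In the authors' deposited full tables, 12, 4 and 1 of the 36 genes had an unadjusted p under 0.05 in these 3 comparisons. After that adjustment 3, 0 and 0 passed, the 3 being Slc2a4, Eno3 and Ldha. The other genes called by limma did not pass there, among them all 3 called higher. Their Benjamini-Hochberg values in the authors' deposited table were 0.0683 for Pdk2, 0.213 for Pfkfb1, 0.398 for Pfkp, 0.904 for Pgam1 and 0.9999 for Gbe1.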

How the data were processed

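Polyadenylated RNA from 9 mouse heart libraries was measured. The submitters' processing notes name HISAT2, HTSeq, DESeq2 and the build mm10, without roles or versions. The deposited score of a gene in a library is a whole number that the authors normalized and rounded; the unit is not given in the sources used here, and a per-million value scaled for transcript length fits the totals and gene lengths. Sequencing depth is unknown, so no counting interval was computed and precision rests on 3 libraries per group. Per the file headers, the tables also hold a mean signal, a log2 fold change with its standard error, and a p-value. The authors' deposited column of adjusted p-values equals the unadjusted p of the fold change over its error, and was read as such.

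Each pair of groups had its own limma fit (limma 3.58.1, R 4.3.3) of log2(value + 1), for genes with a mean of at least 1. A difference on this scale understates the change of low genes. The variance that rounding alone adds (0.0833 for deposited values) was the floor for residual variances, prior degrees of freedom came from genes with a mean of at least 30, and p-values were Benjamini-Hochberg adjusted over all genes tested. The script was tested on simulated data. Within-library ratios used exact permutation tests. Genes in full are those called, or not overlapping with a log2 difference of at least 0.5; other pathway genes are named where called, up to 5 a list. The genes and lists were chosen with earlier results of these data known. A listed pathway gene is not reported here and was left out of the list counts. Transcript copies were searched with blastn 2.17.0 in GENCODE M21 (GRCm38), whose positions are given. Alternatives covered pseudocounts, filters, scalings, variance steps, a replicate block, and libraries left out.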

Additional observations from a re-analysis of the deposited data

How the results depend on the processing

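In saline mutants against wild type, Pfkfb1, Slc2a4 and Eno3 were called under every alternative that tested them (limma adjusted p up to 0.0096, 0.0331 and 0.0261). The count of glucose genes called was 8. It was 3 to 6 with single libraries left out, 4 without the libraries with Xist, and 4 with a replicate block. Replicate numbers did not pair the libraries: same-numbered libraries of different groups correlated from -0.42 to 0.62 over 4981 genes, above 0.1 in 3 of 9 pairs, so the block is given as a number only. Over all genes the count was 1051, 528 to 1037 with single libraries left out, and 580 without the libraries with Xist.

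In treated against saline mutants, 4 genes were called in all, and 32 with limma's variance step as it stands, 14 with prior degrees of freedom from all genes, 9 with a pseudocount of 0.1, 2 without a filter, 10 with median-of-ratios or upper-quartile factors, 13 with all 9 libraries in 1 fit, 35 with the replicate block, 2 without the libraries with Xist and 2 to 8 with single libraries left out. The count of glucose genes was 0, and 1 with limma's variance step as it stands (Pfkfb1, adjusted p 0.0263) or with all 9 libraries (Pfkfb1, 0.0171). In treated mutants against wild type, 134 genes were called in all, and 77, 243, 239, 35 and 9 with limma's variance step as it stands, the prior from all genes, all 9 libraries, the block and without the libraries with Xist. With single libraries left out the count ran from 1 to 139. The count of glucose genes was 0. It was 1 with limma's variance step as it stands (Gbe1, 0.0469), and 1 (Pfkfb1, 0.0286 to 0.0473) with the prior from all genes, median-of-ratios factors, upper-quartile factors, totals without mitochondrial transcripts or all 9 libraries. With single libraries left out it was 0 to 1. The causes were not tested.

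The 8 genes called in saline mutants against wild type kept their direction in every alternative, as did the differences of the other glucose genes whose groups did not overlap. The 10 ratios were recomputed with a pseudocount of 0.1 and with single libraries left out. They kept their direction, except with single libraries left out for Slc16a3/Slc16a1 in treated mutants against wild type (0.061, from -0.12 to 0.21) and Pygb/Pygm in treated against saline mutants (-0.037, from -0.15 to 0.036). Pgam1, Pdk2, Gbe1, Pfkp and Ldha each lost their call in some. Of the other pathway genes called, Fbp2, Phkg1, Ugp2, Pdp2 and Egln3 were called in every alternative, and each of the rest lost its call in at least 1. With 3 libraries a group and rounded values of unknown depth, modest differences cannot be told from the spread.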

Other observations

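The lists of side branches, shuttles, regulators and hypoxia-response genes held further called genes in saline mutants against wild type. Of 13 tested hypoxia-response genes outside glycolysis, 2 fell and 0 rose, beside 3.15% of all genes called lower and 4.56% called higher. The list as a whole was not lower, with a median log2 difference of 0.05, beside 0.07 over all genes tested. Egln3, an oxygen-sensing prolyl hydroxylase that marks hypoxia-inducible factors for degradation, was at 76, 95 and 64 in wild type, 32, 33 and 27 in the saline mutants and 73, 53 and 50 in treated mutants. Each saline mutant was below every other library, by -1.31 against wild type (SE 0.156, limma adjusted p 0.00158), called in every alternative. Its relative Egln1 fell by 0.45 on the log2 scale (limma adjusted p 0.0383), a call lost with any single library left out (up to 0.142).

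Of 28 regulators, with a median log2 difference of 0.20, 2 rose and 2 fell. Irs2, an adaptor of the insulin receptor, was at 11, 14 and 13 in wild type, 27, 28 and 23 in the saline mutants and 17, 50 and 19 in treated mutants. It rose by 0.98 in saline mutants (SE 0.14, limma adjusted p 0.00364) and kept the call with any single library left out, but lost it with all 9 libraries in 1 fit (0.107), while treated mutant replicate 2 had the highest value. The transcription factor Myc was at 4, 5 and 4 in wild type, 8, 10 and 9 in the saline mutants and 9, 7 and 8 in treated mutants. Both mutant groups lay above wild type, with a difference of 0.91 in saline mutants (limma adjusted p 0.0107), lost without wild type replicate 1 (0.0566) or 3 (0.051) or saline mutant replicate 2 (0.0727). Akt2, a kinase of insulin signalling, and Prkab1, a subunit of the AMP-activated kinase, fell by 0.42 and 0.48, and both calls were lost with any single library left out (limma adjusted p up to 0.136 and 0.154).

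Of 16 genes of the pentose phosphate, polyol and hexosamine branches, with a median log2 difference of 0.01, 2 fell and 0 rose. Gfpt2, which starts the hexosamine branch, was at 37, 33 and 23 in wild type, 14, 12 and 16 in the saline mutants and 36, 28 and 21 in treated mutants. The saline mutants lay below all other libraries, by -1.08 against wild type (SE 0.189, limma adjusted p 0.01), lost without wild type replicate 1 (0.0529) or saline mutant replicate 2 (0.052). Sord, which oxidises sorbitol to fructose, was at 280, 235 and 252 in wild type, 178, 175 and 158 in the saline mutants and 183, 189 and 214 in treated mutants. Its difference was -0.58 in saline mutants (SE 0.104, limma adjusted p 0.011), lost without saline mutant replicate 2 (0.0521). Of 10 shuttle genes, with a median log2 difference of -0.30, only Slc25a13, an aspartate-glutamate carrier, was called. It was lower by -0.48 (limma adjusted p 0.0412), and lost the call with any single library left out but wild type replicate 1 (up to 0.161).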
